A study of Danio rerio with 28 samples.

Results

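The digestive enzyme genes of the exocrine pancreas were followed in dissected guts of zebrafish larvae that carried or lacked the cytokine gene il22, under different housing. Members were taken by name, as genes whose symbol begins like those of the trypsins, chymotrypsins, pancreatic elastases, carboxypeptidases, lipases and amylase, and which averaged at least 1 count per 1e+06 (CPM) in experiment 2. Of 24 rows whose names fitted, 22 passed that level, out of 15419 rows in the count table of experiment 2. All 22 were also found in the 16134 rows of experiment 1, 21 of them by symbol. The row named prss16 was reached through an older symbol that now also belongs to another gene, so its identity is uncertain. By role, the members were 3 trypsins (prss1, prss59.1 and prss59.2), 1 chymotrypsin (ctrl), 9 elastases (cela1.1 to cela1.6, ela2, ela2l and ela3l), 4 carboxypeptidases (among them cpa1, cpa4 and cpa5), 3 lipases (cel.1, cel.2 and pla2g1b), 1 amylase (amy2a) and prss16.

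The groups were, in experiment 1, il22 knockout and wild-type larvae whose housing the labels do not state. In experiment 2 they were co-housed il22 knockout larvae, germ-free il22 knockout larvae, conventional il22 knockout larvae, germ-free wild-type larvae and conventional wild-type larvae. With whom the co-housed knockouts were kept is not in the labels, and neither is the il22 allele. All larvae were 7 days post-fertilization, and each of the 7 groups held 4 libraries, each a pool of 10 to 15 dissected guts. The replicate is therefore the pool: p-values measure the spread between pools, which may be partly technical. Such a pool holds whatever pancreas was dissected with the intestine.

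Acinar cells of the exocrine pancreas make digestive enzymes as inactive precursors (zymogens), pack them into granules and release them into the gut lumen after feeding. There, trypsin cuts the other protease precursors into their active forms. In zebrafish the exocrine pancreas lies along the intestine, and its enzymes are among the most abundant transcripts of the larval digestive tract. Several of the enzymes are encoded by tandem copies.

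The libraries held 30241961 to 37953666 counts in experiment 1 and 22263733 to 30997846 in experiment 2. The targeted gene il22 was at 0.154 to 1.91 CPM in knockout pools and 3.99 to 13.8 CPM in wild-type pools of experiment 1. In experiment 2 it was at 1.03 CPM or less in knockout pools and at 0.680 CPM or less in wild-type pools, too low there to check the labels. Of 19 listed marker genes of acinar cells that encode no digestive enzyme, only 11 were found, and none of these 11 was at 0 in any group. The labels give the tissue as gut. Islet insulin (ins) was at 0 in 27 of 28 libraries, while glucagon (gcga, also made by gut endocrine cells) was present in all. Whether the annotation or counting used upstream affects the ins row cannot be told from the files, so its zeros are not read as an absence of islets. Summed skeletal muscle transcripts reached 1333 CPM in conventional wild-type pool 1, 851 CPM in germ-free wild-type pool 2 and 477 CPM in co-housed knockout pool 2. Elsewhere they were at 28.2 to 124 CPM. The calls that involve experiment 2 were therefore also checked without these pools. How many were kept is given at the end, and single results without these pools only where stated.

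Per transcript length, elastase cela1.6 and the trypsins prss1 and prss59.2 were the most abundant members. In experiment 2 their level in the authors' TPM (transcripts per 1e+06) averaged 27079 ± 8835, 25144 ± 8191 and 24578 ± 8122 TPM (SD, n = 20 libraries), and together they held 53.2% of the members' counts. In experiment 1 the same 3 genes held 56.1%. The next group lay between 6666 and 11894 TPM and contained prss59.1, cpa5, ctrl, ela3l and amy2a. A middle group from 620.3 TPM (ela2) to 2812 TPM (cel.1) held cpa1, cpa4, pla2g1b and cel.2 as well. The elastases of the cela1 cluster, cela1.1 to cela1.5, were far lower, from 60.4 ± 44.2 TPM for cela1.1 to 355 ± 159.7 TPM for cela1.4. Thus 1 gene outside that cluster, cela1.6, supplied most of the transcripts named cela1. Of the 21 pairs of neighbours in this order, 14 lay closer than the larger of their SDs over libraries. The 7 wider steps included those below prss59.2, prss59.1, amy2a, cpa1, ela2 and ela2l. These SDs include differences between groups and swings that the genes of a pool share. They therefore do not measure how firm the order is within a pool, which was not tested. Just outside the members fell ctrb1 (0.477 CPM in experiment 2) and cpb1 (0.347 CPM), genes of a further chymotrypsin and of carboxypeptidase B. Cpb1 was listed at 0 in experiment 1. An effect of the upstream annotation or counting on these low rows was not tested, so their levels are not read as absence of the enzymes.

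Close copies share sequence, and the authors' way of assigning reads between them is not given in the sources used here. In the RefSeq annotation of the newer assembly GRCz12tu, used for names and order only, cela1.1, cela1.2, cela1.3, cela1.4 and cela1.5 stand next to each other in that order, and so do prss59.1 and prss59.2, cel.2 and cel.1, cpa1 and cpa5, and ela2l and ela2. Levels of single copies in these pairs and runs are uncertain to that extent.

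Together the 22 genes took between 4.21% and 16.5% of a library's counts. The summed share was 7.16%, 7.15%, 7.27% and 10.9% in knockout pools and 7.47%, 5.81%, 8.33% and 8.69% in wild-type pools of experiment 1. Experiment 2 gave 16.5%, 8.93%, 10.98% and 10.96% in co-housed knockout pools, 13.3%, 4.97%, 10.8% and 12.2% in germ-free knockout pools and 9.95%, 8.33%, 5.15% and 8.28% in conventional knockout pools. Wild-type pools held 8.48%, 13.7%, 7.63% and 11.8% when germ-free and 8.89%, 4.21%, 6.03% and 7.61% when conventional. Every pair of groups within an experiment overlapped except 1: the lowest co-housed knockout pool, at 8.93%, lay just above the highest conventional wild-type pool, at 8.89%. The means were 8.13 ± 1.86% in knockouts and 7.57 ± 1.28% in wild types of experiment 1 (SD, n = 4 pools each). In experiment 2 they were 11.8 ± 3.26% in co-housed, 10.3 ± 3.7% in germ-free and 7.93 ± 2.01% in conventional knockouts, 10.4 ± 2.85% in germ-free wild types and 6.68 ± 2.02% in conventional wild types. In such bulk samples, fewer acinar cells in a pool and less enzyme RNA per cell cannot be told apart.

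**Figure D1:**
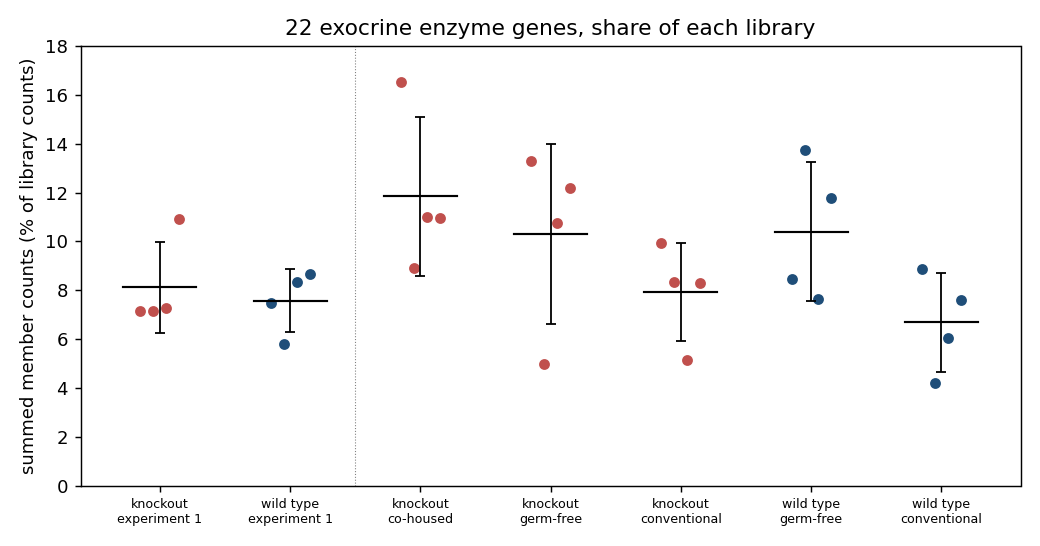
Share of each library's counts held by the 22 members (prss16, of uncertain identity, among them), in percent on the vertical axis from 0, by group. Each point is 1 pool, and bars give the mean ± SD. The groups of an experiment overlap, apart from co-housed knockout (8.93% and more) against conventional wild type (8.89% and less).

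Within a group, most of the enzymes went up and down together from pool to pool. Co-housed knockout pool 1 held its group's highest value for 20 of the 22 genes, and germ-free knockout pool 2 the lowest value for 20. Conventional knockout pool 3 was lowest for 21 genes, conventional wild-type pool 2 for 19 and germ-free wild-type pool 3 for 18. In experiment 1, knockout pool 4 was highest for 19 genes and wild-type pool 2 lowest for 19. Over the 20 libraries of experiment 2, differences between groups included, the row named prss16 varied 2.31-fold between its lowest and highest CPM, ela2l 2.99-fold, and cela1.3 445-fold.

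**Figure D2:**
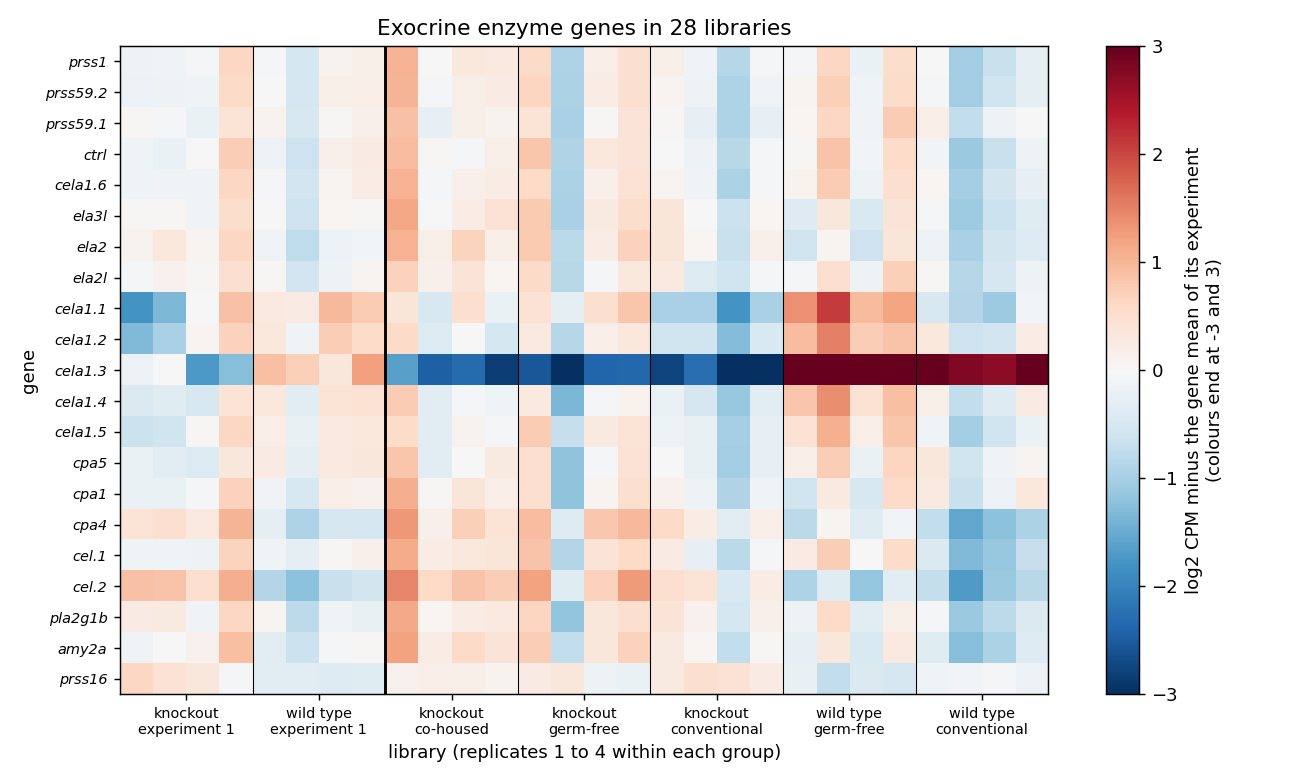
log2 CPM of 21 members (rows) in each of the 28 libraries (columns, by group), minus the gene's mean over the libraries of its experiment; colours end at -3 and 3. Whole columns are red or blue together, as in co-housed knockout pool 1 and germ-free knockout pool 2, whereas cela1.3 follows genotype in experiment 2.

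Il22 knockouts were compared with wild types in 3 settings by edgeR's quasi-likelihood test (Benjamini-Hochberg adjustment over all rows tested, threshold 0.05). Fold changes are log2, given with their SE. In this design the lack of il22 and any other difference between knockout and wild-type larvae cannot be told apart. In experiment 1, 5 members rose in knockouts (among them cel.2, cpa4, prss16 and ela2) and 1 fell (cela1.3), against 16.1% of all 10710 rows called higher, 17.0% lower and 33.1% in either direction. In conventional larvae, 3 rose (cpa4, cel.2 and prss16) and 1 fell (cela1.3), against 17.0% higher, 19.1% lower and 36.2% in either direction of 11254 rows. In germ-free larvae, 3 rose (cel.2, cpa4 and prss16) and 4 fell (cela1.3, cela1.4, cela1.1 and cela1.2), against 13.5%, 13.3% and 26.8%. The 4 that fell are neighbouring copies with uncertain read assignment, so their calls may not be independent. The counts called, 6, 4 and 7 of 22, were near or below what those percentages give, and the members' median fold change was 0.16 in experiment 1, 0.19 in conventional and -0.11 in germ-free larvae, against -0.01, -0.02 and -0.0038 over all rows. Cel.2, cpa4 and prss16 were called higher, and cela1.3 lower, in each of the 3 comparisons. Groups did not overlap in CPM for 6, 4 and 6 members in experiment 1, conventional and germ-free larvae, against 34.3%, 31.3% and 29.8% of all rows. In germ-free larvae the 7 calls became 4 without wild-type pool 2, the one with muscle transcripts, or without knockout pool 2, the one lowest in enzymes; cela1.1, cela1.2 and cela1.4 were the calls lost.

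Rearing was compared in knockouts and in wild types separately. In wild types 6 members rose under germ-free rearing, namely cela1.1 to cela1.5 and cel.1, and the row named prss16 fell, against 12.1% of all rows called higher, 13.2% lower and 25.2% in either direction. Cela1.1 to cela1.5 are neighbouring copies with uncertain read assignment, so their calls may not be independent. The fold change was above 0 for 21 of 22 members, with a median of 0.71 against -0.0018 over all rows, and groups did not overlap in CPM for 7 members, against 17.1% of all rows. In knockouts only cela1.1 was called higher and none lower, against 14.0% and 13.3% of all rows (27.2% in either direction); 20 of 22 fold changes were above 0, with a median of 0.38, and 1 member did not overlap, against 33.5% of all rows. The 2 responses were compared directly through the genotype by germ-free interaction. In it no member was called, no member had an unadjusted p under 0.05 and DESeq2 called 0. Of all rows, edgeR called 0.444% (0.329% higher and 0.116% lower). The interaction was below 0 for 19 of 22 members, with a median of -0.36 against 0.012 over all rows. Most enzymes moved together from pool to pool, so these signs are not independent. The count in wild types dropped to 4 without conventional pool 3, and the count in knockouts rose to 6 (5 higher, 1 lower) without germ-free pool 2, the pool lowest in enzymes.

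Co-housed knockouts were set against conventional knockouts and against conventional wild types. Against conventional knockouts, cela1.1 alone was called higher and none lower, against 1.5% and 1.09% of all rows (2.59% in either direction), while 21 of 22 fold changes were above 0 with a median of 0.62 (all rows 0.0023); 3 members did not overlap, against 12.6%. Against conventional wild types, which differ in genotype as well as housing, 8 members rose (cel.2, cpa4, cel.1, amy2a, ela2, pla2g1b, ela3l and prss1) and cela1.3 fell, against 16.1% and 17.1% of all rows (33.2% in either direction), with a median of 0.73 (all rows -0.01). Here 11 members did not overlap, against 26.0% of all rows. The 9 calls became 5 without conventional wild-type pool 2, without conventional wild-type pool 3 or without co-housed pool 1. Comparisons that name the same conventional or germ-free group share its 4 pools, so they are not independent of each other.

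**Figure D3:**
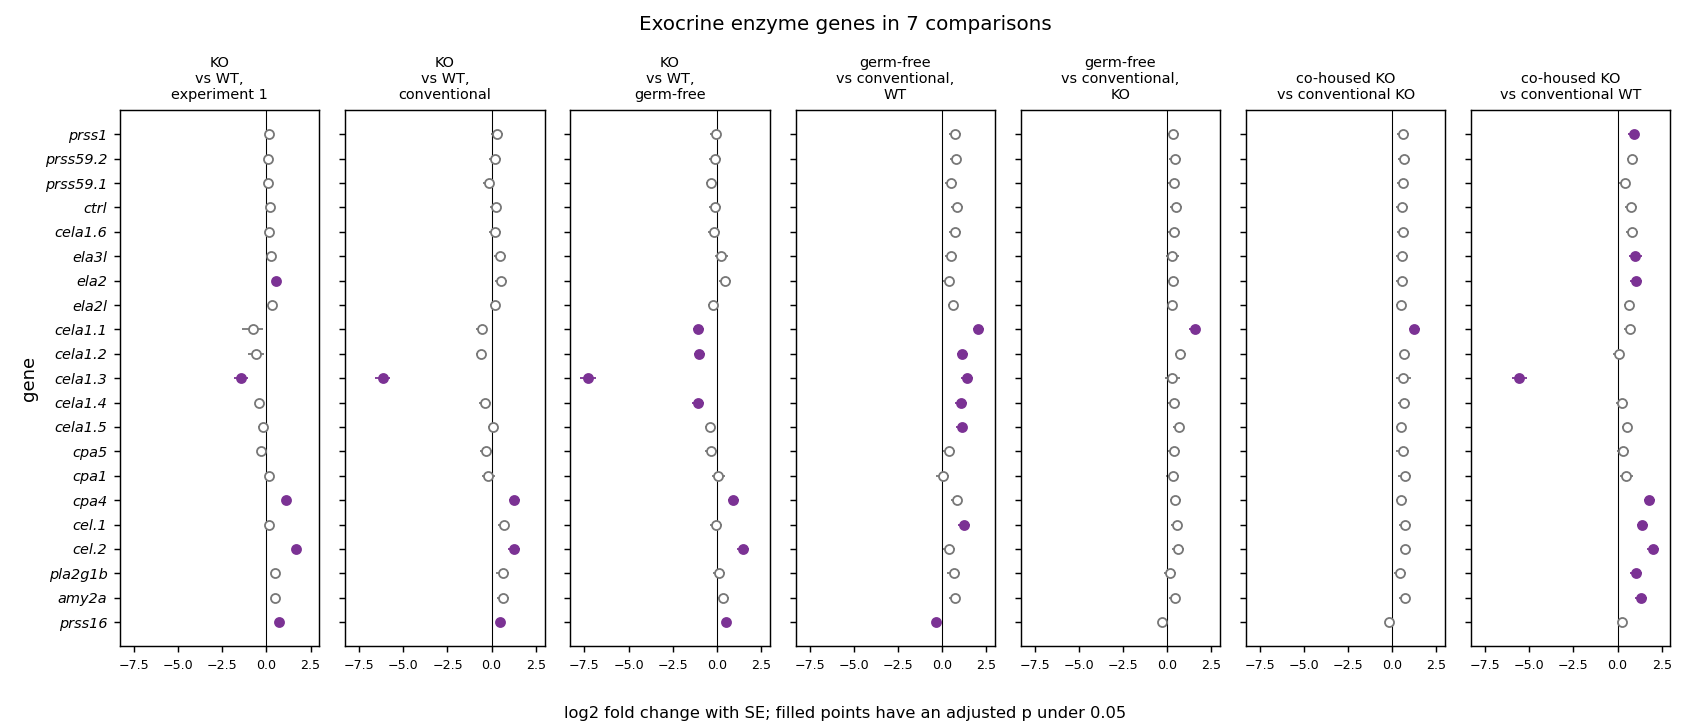
log2 fold change (horizontal axis, with SE) of 21 members in 7 comparisons, 1 panel each; filled points have an adjusted p under 0.05. Cel.2 and cpa4 lie to the right and cela1.3 to the left of 0 in the knockout to wild-type panels. Most members lie right of 0, without being called, in the germ-free against conventional panels and in the co-housed panels.

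Elastases cut proteins after small uncharged residues, and cela1.3 was the member with the largest fold changes between genotypes in experiment 2. It had 102, 116, 34.9 and 47.6 CPM in knockout pools of experiment 1, against 216, 189, 147 and 271 CPM in wild-type pools. In experiment 2 the gene was at 6.19, 3.52, 3.88 and 2.69 CPM in co-housed, 3.27, 2.17, 3.69 and 3.73 CPM in germ-free and 2.84, 3.93, 1.72 and 2.02 CPM in conventional knockout pools. Germ-free wild-type pools held 599, 766, 263 and 418 CPM and conventional wild-type pools 223, 130.4, 124 and 285 CPM. Knockout and wild-type pools did not overlap in either experiment, but the knockout pools of experiment 1 lay far above all 12 knockout pools of experiment 2 (tables counted separately, levels not tested), where the counts behind these values were between 47 and 130 reads. The log2 fold change was -1.45 ± 0.40 in experiment 1 (adjusted p = 0.0273), -6.18 ± 0.43 in conventional larvae (1.5e-08) and -7.31 ± 0.44 in germ-free larvae (2.4e-09), all by edgeR's quasi-likelihood test. It was -5.56 ± 0.41 for co-housed knockouts against conventional wild types (edgeR adjusted p = 3.2e-08). The knockout effect in experiment 1 minus that in conventional larvae of experiment 2 was 4.71 ± 0.60 in a joint edgeR fit (adjusted p = 2.9e-04), a comparison added after the data were seen; cela1.3 was the only member called in it, against 9.91% of all rows (4.85% higher and 5.07% lower). The experiment 1 call was lost without knockout pool 4, wild-type pool 1 or wild-type pool 4.

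Wild types also carried more cela1.3 when germ-free, with a log2 fold change of 1.43 ± 0.33 over conventional (edgeR adjusted p = 0.00611), although the lowest germ-free pool, at 262.8 CPM, lay below the highest conventional one, at 284.6 CPM. Among knockouts the same contrast was 0.29 ± 0.43 (edgeR adjusted p = 0.653). The knockout values rested on 55 to 94 reads when germ-free and 47 to 102 reads when conventional. Compared directly, the 2 responses differed by -1.13 in the interaction, which was not called.

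Another copy of the cluster, cela1.1, was higher under germ-free rearing and under co-housing. It was at 58.03, 32.5, 63.9 and 38.9 CPM in co-housed, 60.8, 36.8, 62.7 and 80.4 CPM in germ-free and 22.9, 22.9, 13.1 and 22.8 CPM in conventional knockout pools, and at 117, 193, 86.6 and 102 CPM in germ-free and 32.03, 24.6, 20.97 and 42.6 CPM in conventional wild-type pools. All 4 germ-free pools of each genotype, and all 4 co-housed pools, lay above the conventional pools of that genotype. The log2 fold change under germ-free rearing was 2.05 ± 0.31 in wild types (edgeR adjusted p = 4.5e-04) and 1.56 ± 0.31 in knockouts (0.00172); the interaction was -0.49 ± 0.43 (0.621). Under co-housing it was 1.24 ± 0.31 over conventional knockouts (edgeR adjusted p = 0.0432), a call that was lost in 7 of the 8 fits with 1 library left out. In germ-free larvae the gene was lower in knockouts, with a log2 fold change of -1.05 ± 0.30 (edgeR adjusted p = 0.0158), or -0.76 (adjusted p = 0.0685) without the pools with muscle transcripts.

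In experiment 1, cela1.1 had 12.2, 16.6, 42.2 and 78.1 CPM in knockout pools, against 51.6, 50.4, 83.5 and 71.8 CPM in wild-type pools. The next copy, cela1.2, had 21.3, 27.3, 57.1 and 87.3 CPM in the same knockout pools and 67.4, 49.9, 90.3 and 79.2 CPM in wild types. Knockout pools 1 and 2 were low in both genes and knockout pools 3 and 4 were within or near the wild-type range, the opposite of cela1.3, which was higher in pools 1 and 2 than in pools 3 and 4. Neither passed the test, at -0.79 ± 0.57 for cela1.1 (edgeR adjusted p = 0.334) and -0.57 ± 0.45 for cela1.2 (0.375).

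In experiment 2, cela1.2 was at 68.5, 34.8, 45.9 and 32.1 CPM in co-housed, 56.5, 25.4, 53.01 and 57.6 CPM in germ-free and 30.8, 30.8, 18.8 and 34.01 CPM in conventional knockout pools. Wild-type pools were at 88.3, 133, 77.1 and 83.4 CPM when germ-free and 57.7, 30.3, 31.4 and 53.8 CPM when conventional. Germ-free wild-type pools were above all other groups, including germ-free knockouts. It rose under germ-free rearing in wild types (log2 fold change 1.14 ± 0.31, edgeR adjusted p = 0.0132) and was lower in germ-free knockouts than in germ-free wild types (-0.99 ± 0.31, 0.0236); these calls were lost in 1 and 2 of 8 fits with 1 library left out, in that order.

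Cela1.4 had 236, 247, 228 and 417 CPM in knockout pools of experiment 1, against 394, 250.0, 419 and 433 CPM in wild types. Experiment 2 gave 566, 268, 322 and 306 CPM in co-housed, 407, 128, 318 and 359 CPM in germ-free and 292, 233, 150.2 and 266 CPM in conventional knockout pools. Wild types were at 592, 878, 458 and 618 CPM germ-free and 378, 199.6, 256 and 391 CPM conventional. The germ-free groups of the 2 genotypes did not overlap (log2 fold change -1.07 ± 0.34, edgeR adjusted p = 0.0278), nor did germ-free and conventional wild types (1.06 ± 0.34, 0.0326). Both calls were lost without the pools with muscle transcripts, at -0.88 (adjusted p = 0.0991) and 0.98 (0.102).

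Cela1.5 was at 98.4, 101, 158 and 239 CPM in knockout and 178, 133, 189.6 and 192 CPM in wild-type pools of experiment 1. Its values in experiment 2 were 269, 145, 196 and 175 CPM in co-housed, 308, 114, 223 and 245 CPM in germ-free and 164, 157, 91.1 and 155 CPM in conventional knockouts, with 247, 385, 211 and 326 CPM in germ-free and 169.8, 91.02, 121 and 159 CPM in conventional wild types. Germ-free wild-type pools all lay above conventional ones, by a log2 fold change of 1.11 ± 0.29 (edgeR adjusted p = 0.0121). The knockouts differed by 0.65 ± 0.29 in the same contrast (edgeR adjusted p = 0.1096).

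Cela1.6, the most abundant member, had 15059, 15500.2, 15503 and 25544 CPM in knockout pools and 16230.0, 11177, 17503 and 19168 CPM in wild-type pools of experiment 1. Co-housed knockouts held 35948, 16929.5, 19503 and 20522 CPM, germ-free knockouts 26524, 9091, 19579 and 23803 CPM and conventional knockouts 18418, 16164, 9104 and 16759 CPM. Germ-free wild types held 18820.0, 29482, 15669.6 and 24832 CPM and conventional wild types 18089, 8579.5, 11895 and 14824 CPM. Groups overlapped in each of the 7 comparisons and none was called, with log2 fold changes between -0.17 (knockout against wild type, germ-free) and 0.80 (co-housed knockout against conventional wild type).

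Of the 3 elastases with other names, ela2 was called higher in knockouts of experiment 1, and ela2 and ela3l in co-housed knockouts against conventional wild types. Ela3l had 3539.7, 3518, 3189 and 4907 CPM in knockouts and 3470.3, 2242, 3585 and 3508 CPM in wild types of experiment 1. In experiment 2 ela3l had 9437, 4211, 4943 and 5727 CPM in co-housed, 7269, 2162, 5123 and 6103 CPM in germ-free and 5467, 4238, 2680.0 and 4409.6 CPM in conventional knockouts, and 3207, 5371, 3101 and 5549 CPM in germ-free and 4074, 2011, 2695 and 3283 CPM in conventional wild types. Only co-housed knockouts against conventional wild types were called, at 1.01 ± 0.36 (edgeR adjusted p = 0.0378), with no overlap; the call was lost in 4 of the 8 fits with 1 library left out. Ela2 was at 631, 732, 623 and 908 CPM in knockouts and 549, 347, 524 and 552 CPM in wild types of experiment 1, with no overlap and a log2 fold change of 0.55 ± 0.17 (edgeR adjusted p = 0.0342), a call lost in 3 of 8 fits with 1 library left out. In experiment 2 ela2 had 1590.5, 871, 1224 and 870.2 CPM in co-housed, 1326, 440.5, 895 and 1236 CPM in germ-free and 995, 797, 487 and 858 CPM in conventional knockouts, against 514, 821, 502 and 997 CPM in germ-free and 679, 394, 524 and 595 CPM in conventional wild types. Ela2 too was called between co-housed knockouts and conventional wild types (1.06 ± 0.33, edgeR adjusted p = 0.0221), a call also lost in 3 of 8 such fits. Ela2l ranged from 89.1 to 266 CPM over experiment 2 and was not called in any comparison.

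**Figure D4:**
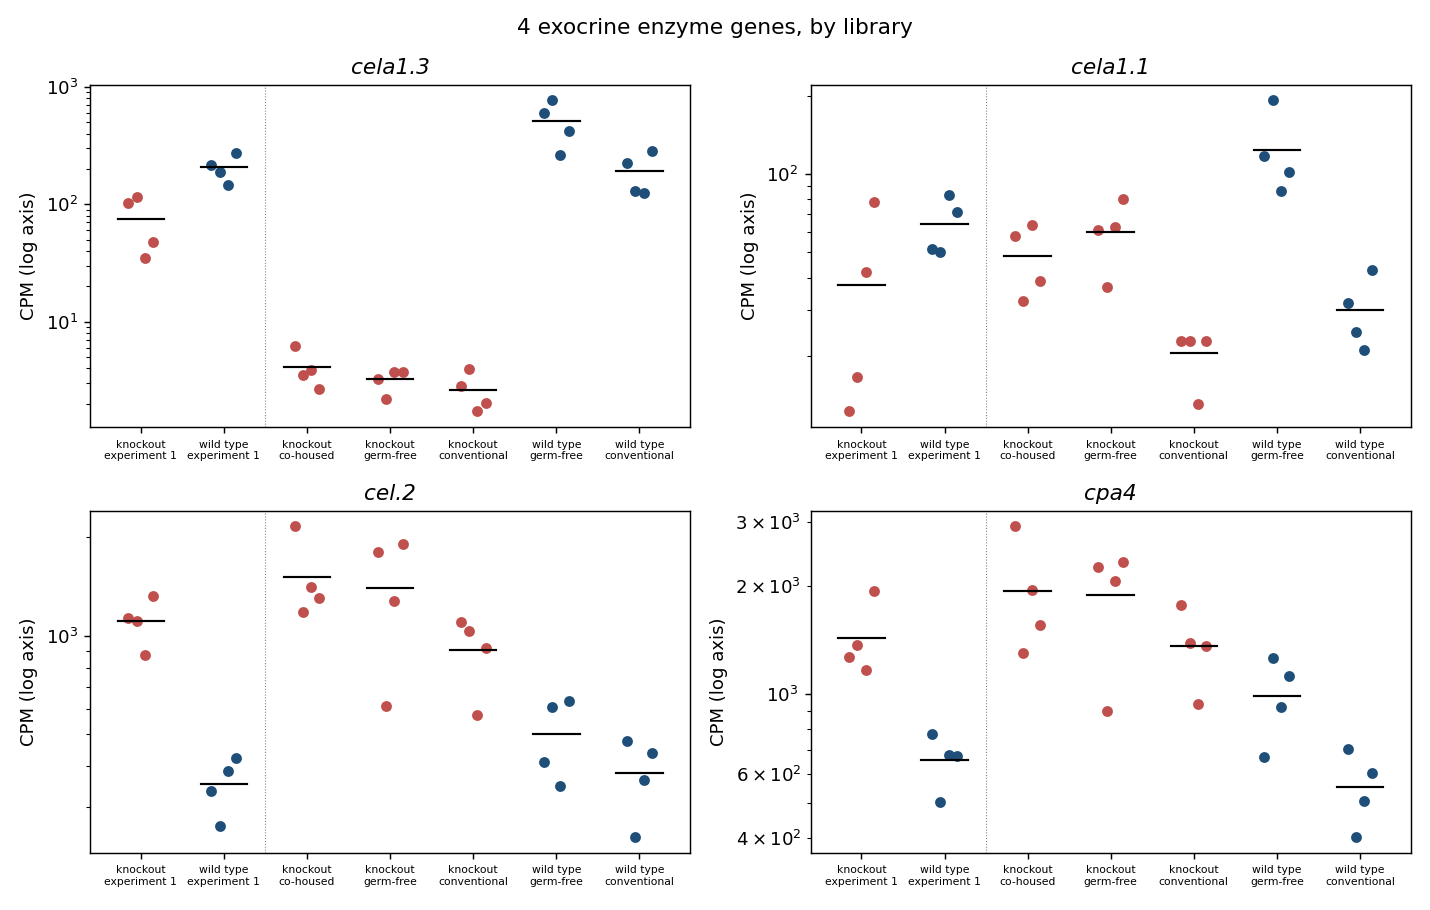
CPM on a log axis of cela1.3, cela1.1, cel.2 and cpa4 in the 28 pools by group, with a line at each mean; red points are knockout and blue points wild-type pools. Cela1.3 is at 1.72 to 6.19 CPM in the 12 knockout pools of experiment 2 and at 123.7 CPM or more in all wild-type pools. Cela1.1 in each germ-free group lies above the conventional pools of the same genotype. Wild-type pools of experiment 1 hold 50.4 to 83.5 CPM of cela1.1, germ-free knockout pools 36.8 to 80.4 CPM.

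The trypsins cut after lysine and arginine and activate the other precursors. Prss1 had 12410.1, 12636, 13179.5 and 21011 CPM in knockouts and 13200.0, 9501, 14849 and 15529.8 CPM in wild types of experiment 1. In experiment 2 its values were 31085, 14996, 18840.5 and 18518 CPM in co-housed, 22799, 7948, 17481 and 21306 CPM in germ-free and 17069, 14240.1, 8341 and 14747 CPM in conventional knockouts, and 14882, 23359, 13139 and 21773 CPM in germ-free and 15053, 7370.4, 9603 and 12415 CPM in conventional wild types. It was called between co-housed knockouts and conventional wild types (0.91 ± 0.33, edgeR adjusted p = 0.0446), where the groups overlapped and the call was lost in 6 of 8 fits with 1 library left out. The tandem pair prss59.1 and prss59.2 was not called in any comparison, with log2 fold changes from -0.32 to 0.84. Chymotrypsin ctrl, which cuts after large aromatic residues, had 3473, 3319, 3796 and 6319 CPM in knockouts and 3361, 2448, 4183 and 4479.8 CPM in wild types of experiment 1. It had 8621, 4649.8, 4434 and 5175 CPM in co-housed, 8064, 2431, 5662 and 5959 CPM in germ-free and 4533, 4099.7, 2551 and 4409.6 CPM in conventional knockouts, and 4675, 8178, 4309 and 6642 CPM in germ-free and 4283, 2112, 2857 and 4095 CPM in conventional wild types of experiment 2. No contrast of ctrl passed the test, although germ-free wild types lay above conventional ones without overlap (0.83 ± 0.34, edgeR adjusted p = 0.0795).

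Carboxypeptidases trim residues from the carboxyl end of peptides, and cpa4 was called higher in knockouts in each genotype comparison. Cpa4 had 1267, 1365, 1168 and 1935 CPM in knockouts and 775, 502, 679 and 675 CPM in wild types of experiment 1, with no overlap and a log2 fold change of 1.12 ± 0.18 (edgeR adjusted p = 0.00155). Experiment 2 gave 2919, 1301, 1944 and 1555 CPM in co-housed, 2254, 900.4, 2065 and 2328 CPM in germ-free and 1764, 1384, 939.8 and 1359.9 CPM in conventional knockouts, and 668, 1256, 922 and 1121 CPM in germ-free and 706, 402, 505 and 605 CPM in conventional wild types. Conventional knockouts all lay above conventional wild types (1.296 ± 0.31, edgeR adjusted p = 0.00374), and so did co-housed knockouts (1.799 ± 0.32, 3.4e-04). In germ-free larvae the groups overlapped through knockout pool 2 (0.93 ± 0.31, edgeR adjusted p = 0.0339), and that call was lost in 5 of 8 fits with 1 library left out and with the replicate number as a block (adjusted p = 0.0507).

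Cpa5, the most abundant carboxypeptidase, had 5225, 4837, 4539.5 and 7573 CPM in knockouts and 7134, 4890.2, 7363 and 7558 CPM in wild types of experiment 1. Cpa5 in experiment 2 was at 13748, 6134, 7674 and 9245 CPM in co-housed, 10948, 3347, 7460.2 and 10363 CPM in germ-free and 7747, 6613, 3762 and 6507 CPM in conventional knockouts, and 8850.2, 12821, 6738 and 11975 CPM in germ-free and 9720.2, 5121, 7134 and 8206 CPM in conventional wild types. The groups overlapped in each of the 7 comparisons and none was called, and the same was true of its neighbour cpa1.

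The lipases split between copies. Cel.1 and cel.2 encode carboxyl ester lipase, which cleaves cholesterol esters and acylglycerols in the presence of bile salts. Cel.2 had 1135, 1112, 874 and 1319 CPM in knockouts and 337, 262, 387 and 423 CPM in wild types of experiment 1, a log2 fold change of 1.66 ± 0.17 with no overlap (edgeR adjusted p = 1.2e-04). In experiment 2 it was at 2161, 1179, 1413 and 1307 CPM in co-housed, 1797, 610.2, 1276 and 1901 CPM in germ-free and 1105, 1034, 574 and 919.7 CPM in conventional knockouts, against 412, 609, 348 and 632 CPM in germ-free and 477, 243, 362 and 438 CPM in conventional wild types. Conventional knockouts and wild types did not overlap (1.26 ± 0.33, edgeR adjusted p = 0.00707), nor did co-housed knockouts and conventional wild types (1.99 ± 0.34, 2.6e-04); in germ-free larvae the ranges met through knockout pool 2 (1.48 ± 0.33, 0.00297). None of the 4 calls was lost in any fit with 1 library left out.

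The neighbouring copy cel.1 had 3143, 3141, 3107 and 5496 CPM in knockouts and 3163, 2814, 3560.4 and 3817 CPM in wild types of experiment 1, which overlapped (0.16 ± 0.20, edgeR adjusted p = 0.578). Its values in experiment 2 were 7408, 4019.9, 4291 and 4397 CPM in co-housed, 6185, 1863, 4468 and 5228 CPM in germ-free and 4090.4, 2905, 1969.7 and 3283 CPM in conventional knockouts, with 4069.8, 5744, 3385 and 5006 CPM in germ-free and 2539, 1372, 1574 and 2124 CPM in conventional wild types. Germ-free wild types all lay above conventional ones (1.26 ± 0.33, edgeR adjusted p = 0.0115), as did co-housed knockouts (1.403 ± 0.33, 0.00367). Pancreatic phospholipase pla2g1b had 410.0, 413, 316 and 529 CPM in knockouts and 362, 199, 319 and 293 CPM in wild types of experiment 1. Experiment 2 gave 844, 397, 448 and 468 CPM in co-housed, 604, 170.4, 483 and 532 CPM in germ-free and 502, 421, 265 and 428 CPM in conventional knockouts, and 346, 569, 309 and 431 CPM in germ-free and 366, 179, 223 and 284 CPM in conventional wild types. It was called between co-housed knockouts and conventional wild types (1.04 ± 0.35, edgeR adjusted p = 0.03198), and 3 of 8 fits with 1 library left out lost that call.

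Amylase amy2a, which cleaves starch, had 5411, 5870.2, 6298 and 10883 CPM in knockouts and 4657, 3706, 5609 and 5961 CPM in wild types of experiment 1. In experiment 2 it had 16974, 8658, 10973 and 9703 CPM in co-housed, 12413, 4467, 9303 and 12034 CPM in germ-free and 8887, 7645, 4429 and 7635 CPM in conventional knockouts, and 6201, 9312, 5395 and 9010.2 CPM in germ-free and 5733, 3035, 3823 and 5696 CPM in conventional wild types. Co-housed knockouts all lay above conventional wild types (1.34 ± 0.33, edgeR adjusted p = 0.00471, lost in no fit with 1 library left out). The knockout to wild-type log2 fold change was 0.51 ± 0.24 in experiment 1 (edgeR adjusted p = 0.138), 0.64 ± 0.32 in conventional larvae (0.129) and 0.35 ± 0.32 in germ-free larvae (0.473). A second amylase row, amy2al2, carries a clone name in the table of experiment 2 and so is not a member. It averaged 1169 ± 703 CPM in knockouts and 1788 ± 332 CPM in wild types of experiment 1, where knockout pool 1 had 252.2 CPM. Its averages in experiment 2 were 4156 ± 1895 CPM in co-housed, 3488 ± 1737 CPM in germ-free and 1698 ± 662 CPM in conventional knockouts, and 2475 ± 688 CPM in germ-free and 1941 ± 471 CPM in conventional wild types (SD, n = 4 pools each). It was called between co-housed knockouts and conventional wild types alone (1.099 ± 0.39, edgeR adjusted p = 0.0377).

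The row named prss16 kept a narrow range that did not follow the other members. It had 169, 149, 139 and 105 CPM in knockouts and 88.3, 88.1, 84.2 and 84.5 CPM in wild types of experiment 1. Experiment 2 gave 99.7, 104, 103 and 97.9 CPM in co-housed, 107, 115, 81.7 and 78.9 CPM in germ-free and 109, 125, 121 and 108 CPM in conventional knockouts, and 77.8, 54.4, 66.98 and 64.02 CPM in germ-free and 82.99, 85.6, 88.4 and 79.5 CPM in conventional wild types. In germ-free knockout pool 2, the lowest of its group for 20 members, it was at its group's highest. Within groups, its correlation with the median of the other members was -0.76 in experiment 1 and -0.53 in experiment 2. Knockouts and wild types did not overlap in the 3 genotype comparisons, with log2 fold changes of 0.70 ± 0.13 in experiment 1, 0.46 ± 0.11 in conventional and 0.54 ± 0.11 in germ-free larvae (edgeR adjusted p = 0.00259, 0.00299 and 0.00115). Under germ-free rearing it fell in wild types (log2 fold change -0.35 ± 0.11, edgeR adjusted p = 0.0255), a call lost in 5 of 8 fits with 1 library left out and without the pools with muscle transcripts (adjusted p = 0.124).

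Because pools differed in how much enzyme RNA they held, each member was also expressed as a share of the summed member counts of its pool. These shares add up to 100%, so a rise of one lowers the others, and they were not tested as a set. On this scale the genotypes separated for more members than in CPM. Groups did not overlap for 11 members in experiment 1 (4 higher and 7 lower in knockouts), 15 in conventional larvae (8 and 7) and 12 in germ-free larvae (5 and 7). Divided in the same way by the summed member counts, 14.9%, 8.27% and 5.62% of all rows did not overlap; as the divisor is made of the members, these percentages are not like for like. In edgeR fits with libraries scaled to the summed member counts, 6 members were called in experiment 1, 1 in conventional larvae and 2 in germ-free larvae, all including cela1.3. These fits scaled all rows in that way, so the other rows took on the pools' differences in enzyme content. The spread that edgeR shares between rows changed with them, so a call lost there does not show that the difference vanished.

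Cpa5 made up 6.67 ± 0.443% of the enzyme counts in knockouts and 9.06 ± 0.316% in wild types of experiment 1, 7.902 ± 0.172% in conventional knockouts and 11.3 ± 0.485% in conventional wild types, and 7.703 ± 0.501% in germ-free knockouts and 9.35 ± 0.486% in germ-free wild types (SD, n = 4 pools each). It was lower in every knockout pool than in every wild-type pool of each of the 3 comparisons. Amy2a was the reverse, with 8.4 ± 0.734% in knockouts and 6.69 ± 0.349% in wild types of experiment 1, 9.19 ± 0.119% in conventional knockouts and 6.79 ± 0.506% in conventional wild types, and 9.36 ± 0.32% in germ-free knockouts and 6.95 ± 0.152% in germ-free wild types. Its groups did not overlap in any of the 3. Trypsin prss59.1 held 7.56 ± 0.271% in conventional knockouts and 9.86 ± 0.593% in conventional wild types, and 7.47 ± 0.424% in germ-free knockouts and 8.73 ± 0.657% in germ-free wild types, with no overlap. In experiment 1 its groups overlapped, at 7.804 ± 0.8288% in knockouts and 7.999 ± 0.488% in wild types. Cela1.4 was at 0.335 ± 0.0168% in knockouts and 0.499 ± 0.0235% in wild types of experiment 1, 0.303 ± 0.0138% in conventional knockouts and 0.454 ± 0.0417% in conventional wild types, and 0.293 ± 0.0155% in germ-free knockouts and 0.596 ± 0.0783% in germ-free wild types, lower in knockouts without overlap each time. Cel.2 was higher in knockouts without overlap each time, averaging 1.36% against 0.473% in wild types of experiment 1. Its averages were 1.17% against 0.566% in conventional and 1.35% against 0.463% in germ-free larvae. Cpa4 was also higher in knockouts without overlap each time. It averaged 1.73% against 0.892% in experiment 1, 1.77% against 0.834% in conventional and 1.87% against 0.935% in germ-free larvae.

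**Figure D5:**
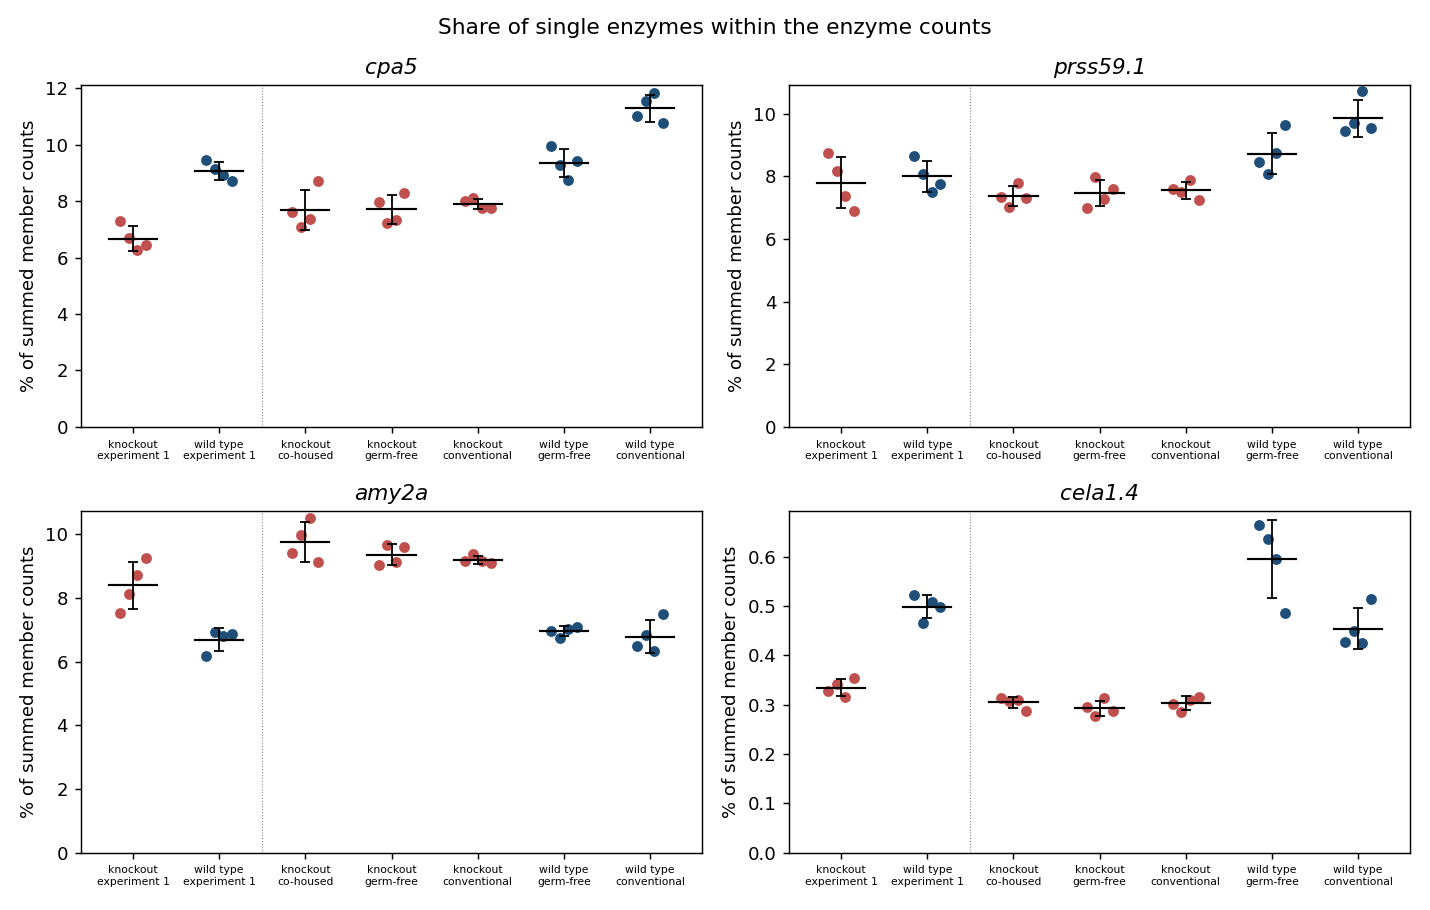
Share of the summed member counts, in percent from 0, held by cpa5, prss59.1, amy2a and cela1.4 in each pool by group; bars give the mean ± SD, red points are knockout and blue points wild-type pools. Amy2a is higher and cpa5 and cela1.4 are lower in knockouts of both experiments, without overlap between the compared groups, while prss59.1 overlaps in experiment 1.

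Summed by role, the trypsins held 41.9 ± 0.442% of the enzyme counts in knockouts and 43.2 ± 0.277% in wild types of experiment 1, and between 41.1% and 42.9% on average in the groups of experiment 2. The elastases held 27.7 ± 0.315% in knockouts and 27.7 ± 0.532% in wild types of experiment 1. Conventional wild types stood apart in 2 roles: carboxypeptidases made up 12.3 ± 0.224% in conventional knockouts, 12.5 ± 0.413% in germ-free wild types and 15.6 ± 0.481% in conventional wild types. Lipases made up 5.63 ± 0.251% in conventional knockouts, 5.12 ± 0.28% in germ-free wild types and 3.796 ± 0.191% in conventional wild types. Neither role overlapped between conventional wild types and any of the other 4 groups of experiment 2. In experiment 1, carboxypeptidases were 10.4 ± 0.404% in knockouts and 12.02 ± 0.404% in wild types, and lipases 6.29 ± 0.264% in knockouts and 5.41 ± 0.473% in wild types. There the lipase groups overlapped and the carboxypeptidase groups did not. Single genes went against their role: cpa4 averaged 0.834% in conventional wild types and 1.77% in conventional knockouts. Cel.2 averaged 0.566% in conventional and 0.463% in germ-free wild types.

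Among germ-free and conventional wild types, shares did not overlap for 8 members (4 higher and 4 lower when germ-free; 16.9% of all rows), including cel.1 at 4.27 ± 0.275% when germ-free and 2.84 ± 0.198% when conventional, and cpa1 at 2.23 ± 0.423% when germ-free and 3.499 ± 0.278% when conventional. Among knockouts 6 did not overlap between germ-free and conventional pools (2.87% of all rows). Among them was cela1.1, at 0.0624 ± 0.0145% when germ-free and 0.0264 ± 0.00195% when conventional. In CPM the same contrast separated 1 member and 33.5% of all rows. The percentages of all rows given for shares in this paragraph are also divided by the summed member counts, so they are not like for like. Co-housed and conventional knockouts differed without overlap for 2 members (13.7% of all rows), cela1.1 at 0.0419 ± 0.0131% when co-housed and 0.0264 ± 0.00195% when conventional, and pla2g1b at 0.449 ± 0.0173% when co-housed and 0.523 ± 0.0174% when conventional. Against conventional wild types, co-housed knockouts did not overlap for 14 members (32.7% of all rows), among them cpa5 at 7.69 ± 0.711% in co-housed knockouts and 11.3 ± 0.485% in conventional wild types.

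Other genes of the acinar cell were taken from a list of 19 regulators and secretory genes that encode no digestive enzyme, of which 11 were found and tested. Other cells of a dissected gut may express these genes, so their changes cannot be assigned to acinar cells here. Xbp1 is also on the list of folding genes used below. Vamp8, a membrane protein of secretory granule fusion, was higher in knockouts in each genotype comparison, with log2 fold changes of 1.601 ± 0.16 in experiment 1, 1.003 ± 0.19 in conventional and 1.65 ± 0.19 in germ-free larvae (edgeR adjusted p = 9.0e-05, 3.3e-04 and 2.2e-06); many other secretory cells express it too. In experiment 1, 3 of the 11 rose in knockouts, the others being sycn.2 (syncollin, a zymogen granule protein, 0.88) and xbp1 (a regulator of secretory capacity, 0.22), and 1 fell (nr5a2, an acinar transcription factor, -0.20). In conventional larvae 4 rose (vamp8, rab3da, xbp1 and nr5a2) and 1 fell (gata4), and in germ-free larvae 1 rose (vamp8) and 1 fell (gata4). Of all rows, 33.1% were called in either direction in experiment 1, 36.2% in conventional and 26.8% in germ-free larvae. Nr5a2 thus changed in opposite directions in experiment 1 and in conventional larvae, at -0.20 ± 0.07 and 0.32 ± 0.10, and the difference between the 2 was -0.53 ± 0.12 (edgeR adjusted p = 0.0132).

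The acinar transcription factor ptf1a, required for the exocrine lineage, rose under germ-free rearing in wild types (1.03 ± 0.33, edgeR adjusted p = 0.0281) and was higher in co-housed knockouts than in conventional wild types (0.92 ± 0.33, 0.0385). In the wild-type contrast nr5a2 rose as well, 2 of 11 in all, and none fell. Germ-free against conventional knockouts had 1 higher (vamp8) and 2 lower (xbp1 and sel1l). Of all rows, 25.2% were called in either direction in wild types and 27.2% in knockouts. Co-housed against conventional knockouts, none of the 11 was called by edgeR (2.59% of all rows) and 1 had an unadjusted p under 0.05. The lists were tested with edgeR alone. Against conventional wild types, 5 rose (vamp8, sycn.2, ptf1a, bhlha15 and xbp1) and none fell, with 33.2% of all rows called in either direction. The summed level of the list was 1541 to 2211 CPM in knockouts and 1067 to 1465 CPM in wild types of experiment 1, without overlap. Single genes made up much of it: sycn.2 held 35.3% in these knockouts and xbp1 32.5% in these wild types. In experiment 2 the largest part was sycn.2 in each knockout group and pdia2 in each wild-type group. The summed level there was 1714 to 3039 CPM in co-housed, 977 to 2219 CPM in germ-free and 1312 to 2069 CPM in conventional knockouts, and 1196 to 1916 CPM in germ-free and 1018 to 1507 CPM in conventional wild types.

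Of the partner genes of the enzymes, sctr (the secretin receptor) rose in knockouts in the 3 genotype comparisons, by 0.34 ± 0.10 in experiment 1, 0.85 ± 0.13 in conventional and 0.47 ± 0.13 in germ-free larvae (edgeR adjusted p = 0.0271, 5.0e-05 and 0.00962), while spink4, a gene of the trypsin inhibitor family, averaged 76.2 ± 8.3 CPM in conventional knockouts and 73.9 ± 7.38 CPM in conventional wild types and was not called. Of 4 pancreatic duct markers tested, ca2 rose in knockouts in conventional (0.36) and germ-free larvae (0.45), and in experiment 1 sox9b rose (0.54) and cftr, a chloride channel of duct and gut epithelium, fell (-0.43). The shares of all rows called in either direction were 36.2%, 26.8% and 33.1% in these comparisons, in that order.

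Genes of other cells that a dissected gut can carry moved as follows beside these results. Liver markers other than apobb.1, which enterocytes also express, summed to 369 to 919 CPM in knockouts and 227 to 539 CPM in wild types of experiment 1. In experiment 2 they summed to 289.6 to 409 CPM in co-housed, 279 to 455 CPM in germ-free and 287 to 809 CPM in conventional knockouts, and 252 to 359 CPM in germ-free and 558 to 806 CPM in conventional wild types. Germ-free wild types were thus below conventional ones without overlap in liver transcripts, while cela1.1 and cel.1 were above. There 4 of 22 liver markers tested fell and none rose, against 13.2% of all rows called lower and 12.1% higher. All co-housed and all germ-free knockout pools, and 3 of the 4 conventional knockout pools, were also below every conventional wild-type pool in the liver sum. Rbp4 alone made up 55.4% of that sum in germ-free and 53.6% in conventional wild types. Enterocyte markers summed to 19111 to 21252 CPM in germ-free and 23171 to 26068 CPM in conventional knockouts, and to 18069 to 22389.6 CPM in germ-free and 22781 to 29169.6 CPM in conventional wild types. Of 14 tested, 2 rose and 7 fell under germ-free rearing in knockouts, and 1 rose and 7 fell in wild types. The shares of all rows were 14.0% higher and 13.3% lower in knockouts, and 12.1% higher and 13.2% lower in wild types. Islet markers summed to 37.7 to 138 CPM over all 28 libraries, and at most 2 of the 9 or 10 tested were called in any comparison, higher and lower together. Of 20 genes of protein folding in the endoplasmic reticulum, 12 fell and none rose in germ-free knockouts against germ-free wild types. In germ-free against conventional knockouts, 11 fell and 2 rose. Of all rows, 13.3% were called lower in each of these comparisons. In experiment 1, 1 of 19 rose and 8 fell in knockouts, against 16.1% of all rows called higher and 17.0% lower. Fewer folding genes fell in the other comparisons. In conventional knockouts against wild types 3 rose and none fell (36.2% of all rows called in either direction). In germ-free against conventional wild types 5 rose and 4 fell (25.2%). Co-housed knockouts had none called against conventional knockouts (2.59%), and 3 higher and 1 lower against conventional wild types (33.2%). The part of these cells and of folding genes in the enzyme differences was not tested.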

How the data were processed

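For each experiment the authors deposited raw read counts per gene, and TPM normalized by them for transcript length and library total. Per the labels' protocols, RNA came from a Norgen single-cell kit, TruSeq stranded mRNA libraries were read as pairs of 100 bases, quality was checked with FastQC 0.11.8 and the genome was danRer11. The sources used here name no aligner, counter, strand setting or annotation. TPM was missing for 1886 rows of experiment 1, ela2 and ela2l among them. Of 16134 transcript rows of experiment 1, 15776 received a symbol, and the row with most counts stood for its symbol.

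The deposited counts were tested with edgeR 4.0.16 in R 4.3.3 (TMM, filterByExpr, robust quasi-likelihood F test, Benjamini-Hochberg threshold 0.05). One fit held experiment 1, another the 5 groups of experiment 2; levels were tested within a table. CPM are counts per 1e+06 of the TMM-scaled library, and the SE is the absolute log2 fold change over the square root of F. The procedure was tested on simulated data in which each gene varied independently. Such data cannot show how the calls behave when the genes of a pool move together. Alternatives were other scalings, DESeq2 1.42.0, no filter, a replicate block, other sample sets and each library left out. The comparison of the knockout effect between experiments and the exclusion of the 2 pools lowest in enzymes were chosen after seeing the data.

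Members and lists were chosen with earlier results of these data known. Values in every pool are given for the most abundant member of each role (by TPM) and for each member called with an absolute log2 fold change of 1 or more, no overlap and at least 5 CPM; prss16 was added after its values were seen. 1 member is counted among the 22 but is not reported here. No 2 pools of a group agreed within sampling noise. No sequence is shown.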

Additional observations from a re-analysis of the deposited data

Results flagged for a closer look

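In groups of 4 pools, 15 values stood apart from the other 3 of their group by a gap that, divided by the group's range, passed Dixon's 95% limit, among 126 groups of values examined; chance gives about 1 in 20, and values of one pool are not independent. Of these, 7 came from knockout pool 4 of experiment 1, with 21010.6 CPM for prss1, 6319 CPM for ctrl, 25544 CPM for cela1.6, 5496 CPM for cel.1, 10883 CPM for amy2a and 416.9 CPM for cela1.4, and a summed share of 10.9% of its counts against 7.15% to 7.27% in the other 3 knockout pools. The same pool had the highest summed liver markers of its group, 919 CPM; the part of this in the values was not tested. Wild-type pool 2 of experiment 1 was low, with 4890.2 CPM for cpa5, 2242 CPM for ela3l and 347 CPM for ela2. Co-housed knockout pool 1 was high, with 7408 CPM for cel.1 and 844 CPM for pla2g1b. Conventional knockout pool 3 was low, with 91.1 CPM for cela1.5 and 13.1 CPM for cela1.1, and germ-free knockout pool 2 had 25.4 CPM for cela1.2.

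The knockout effect on cela1.3 differed between experiment 1 and conventional larvae of experiment 2 by 4.71 on the log2 scale (a direct test in a joint edgeR fit). The 2 experiments were counted separately and the housing of experiment 1 is not in the labels, so experiment, table and housing cannot be told apart. Nor can the lack of il22 and any other difference between the knockout and wild-type larvae of an experiment.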

How the results depend on the processing

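Of 36 member results that passed the test, with none reversed under any alternative, 36 kept their call with DESeq2, 36 with RLE size factors, 36 with scaling computed without the member rows, 35 with library totals only, 33 with no low count filter, 34 with the replicate block, 25 of 29 with the compared groups alone, 25 of 30 without the 3 pools with muscle transcripts, 26 of 30 without the 2 pools lowest in enzymes and 11 with libraries scaled to the summed member counts; in experiment 1, 6 of 6 kept theirs with rows of a symbol summed. With 1 library left out, 246 of 296 kept it and 50 lost it. Replicate numbers did not pair the samples: deviations of same-numbered pools correlated between -0.08 and 0.29 in experiment 1 (1 of 4 pairs over 0.1) and between -0.43 and 0.36 in experiment 2 (8 of 40), so the block joins samples that share only a number. With the replicate block the count of members called was 11 for germ-free against conventional wild types (main 7), 0 for co-housed against conventional knockouts (main 1) and 2 for the knockout effect between experiments (main 1). Scaled to the summed member counts it was 1 for knockout against wild type in conventional larvae (main 4), 2 in germ-free larvae (main 7), 1 for germ-free against conventional wild types, 0 for the same in knockouts (main 1), 0 for co-housed against conventional knockouts, 2 for co-housed knockouts against conventional wild types (main 9) and 2 for the effect between experiments. Co-housed against conventional knockouts also gave 0 with library totals only, no filter or the compared groups alone. DESeq2 gave 3 for germ-free against conventional knockouts and 2 for the effect between experiments. Without the muscle pools, germ-free knockout against wild type gave 4; without the 2 pools lowest in enzymes, germ-free against conventional knockouts gave 6. The cause of these changes was not tested. Scaling to the summed member counts also changed the values of all other rows, as stated with the shares.

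With 1 library left out, counts of members called ranged from 5 to 7 for knockout against wild type in experiment 1, 4 to 4 in conventional and 4 to 7 in germ-free larvae. They ranged from 4 to 8 for germ-free against conventional wild types, 1 to 6 in knockouts, 0 to 1 for co-housed against conventional knockouts, 5 to 9 for co-housed knockouts against conventional wild types, 0 to 0 for the interaction and 1 to 1 for the effect between experiments. Depth limits cela1.3 in knockouts of experiment 2, at 47 to 130 reads.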
